A study of Mus musculus with 12 samples.

Results

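The genes described here are 38 mouse genes of the DNA damage checkpoint, homologous recombination, the Fanconi pathway and mismatch repair, out of 46102 genes listed in the expression files. They were chosen by name, with earlier results of these data known, and the rule itself uses no measured value. RNA was sequenced from LSK cells (lineage-negative, Sca1-positive, c-Kit-positive) that carried BCR-ABL1, the fusion kinase of chronic myelogenous leukaemia (CML). DP cells carried both CD27 and G0M, a fluorescent marker of the G0 phase, whereas SP cells carried CD27 without G0M, and both came from CML mice given vehicle. IMDP and IMSP cells were the same populations after treatment of CML mice with imatinib, which blocks the kinase activity of BCR-ABL1 and was given by gavage at 40 mg/kg daily from day 10 after transplantation. Each of the 4 groups had 3 libraries of 100 sorted cells.

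All groups shared the same model. Bone marrow cells of G0M mice treated with 5-fluorouracil received human BCR-ABL1 by retrovirus and were transplanted, with wild-type marrow cells, into lethally irradiated C57BL/6 mice, with female animals of 6 to 12 weeks in use. G0M is a fusion of mVenus to a p27 variant that does not inhibit CDKs, placed in the Rosa26 locus and switched on by Cre under the Vav1 promoter, which drives it in blood cells. The labels give bone marrow and spleen as the tissue, and do not say whether the libraries of a group came from separate mice. The p-values therefore measure the spread between these libraries, which may be partly technical. All imatinib libraries carry the lower library numbers and all vehicle libraries the higher ones, so library order and treatment cannot be told apart.

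Homologous recombination repairs a broken chromosome by copying the sister chromatid, and it works mainly in S and G2 phase, when that copy exists. The checkpoint kinases ATM and ATR sense breaks and stalled forks, BRCA1 and BRCA2 with their partners act on resected ends, and the Fanconi proteins unhook crosslinks between DNA strands during replication. Inherited defects of the Fanconi genes cause bone marrow failure, and blood stem cells depend on this pathway.

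The deposited values are RPKM, which scale reads by transcript length and library total, and the reads behind them could be recovered from their steps. The totals were 11.4 to 20.6 M reads per library, and 25.5% to 36.6% of them fell on listed features. Of the 38 genes, 37 reached 1 RPKM in at least 3 libraries and were tested, with 20 to 2507 reads per gene and library (median 248). Rad51c stayed below 1 RPKM in every library, between 0.266 and 0.964 RPKM. The filter was reached in DP and IMDP libraries alone by 36 of the 38 genes, and 32 were at 1 RPKM or above in all 12 libraries. The remaining gene, Rad54b, passed only through the SP and IMSP libraries, where it was higher, so a lower call of Rad54b in G0M+ cells is favoured by the filter. The stem and progenitor markers Kit, Ly6a (Sca1), Cd27, Ptprc and Cd34 were above 3 RPKM in every library, and 9 lineage markers summed to 1.70 to 7.60 RPKM. In sorted bulk cells, fewer cells that express a gene and less RNA per cell cannot be told apart.

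Most of the repair genes were lower in G0M+ cells (the DP and IMDP libraries) than in G0M- cells (the SP and IMSP libraries) when both treatments were averaged. Of the 37 tested genes, 25 were lower in G0M+ cells and 0 were higher at a Benjamini-Hochberg adjusted p under 0.05 in limma, beside 21% of all 10072 tested genes lower and 5.32% higher. The median log2 fold change of the repair genes was -0.50, where that of all tested genes was -0.14. Under vehicle, 2 genes, Fancd2 and Eme1, were lower in DP than in SP cells (all genes 1.98%) and 0 were higher (0.288%). Under imatinib, 23 genes were lower in IMDP than in IMSP cells (all genes 23.3%) and 0 were higher (2.37%), and the 23 included Fancd2 and Eme1. All 23 were also among the 25 of the average, to which Chek2 and Fancc were added. Fold changes are on the log2(RPKM + 0.1) scale, which understates the change of weakly expressed genes.

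The libraries were also compared without a model. In 19 of 37 genes all 3 DP libraries lay below all 3 SP libraries (all genes 12.7%), and in 2, Atm and Msh6, all DP libraries lay above (all genes 9.68%). In 25 genes all IMDP libraries lay below all IMSP libraries (all genes 32.8%) and in 0 they lay above (6.21%). Since the median of all genes was itself shifted by -0.26 between IMDP and IMSP cells, calls there were also made with each library scaled to the same median, which left 16 of the 23. For the average over treatments this scaling left 19 genes lower and 1 higher, Atm (log2 fold change 0.38, adjusted p = 0.012). The shares of all genes given above belong to the unscaled fits, so the counts after scaling have no such share beside them. The number of calls also rested on single libraries. Under imatinib it was 13 without IMSP replicate 1 and 15 without IMDP replicate 2. Under vehicle it was 0 without DP replicate 2, DP replicate 3 or SP replicate 1, 1 without SP replicate 3, and 6 without IMDP replicate 1, which enters only through the shared estimate of the spread. With at least 1 of the libraries left out in turn, 10 of the 23 genes lost the call under imatinib, namely Mre11a, Rad50, Rbbp8, Exo1, Atr, Topbp1, Rad51ap1, Rad54b, Xrcc2 and Xrcc1, and 5 of the 25 lost that of the average, namely Fancc, Rbbp8, Atr, Topbp1 and Exo1. Without the filter on low values 21 genes were lower under imatinib, without Rad54b and Exo1, and 21 in the average, without Fancc, Rbbp8, Atr and Exo1. The share of all genes called in the fits without the filter or without 1 library is not given here.

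Libraries with neighbouring library numbers, each a pair of 1 G0M+ and 1 G0M- library of the same treatment, deviated together from their group means (correlations 0.429 to 0.655). With these pairs as a block, 6 genes were lower in DP than in SP cells (all genes 5.56%), which added Brca1, Fanca, Brip1 and Chek2 at adjusted p of 0.0493, 0.0162, 0.047 and 0.0226. Under imatinib 26 were lower in that fit (all genes 35.9%), which added Chek2, Fancc and Xrcc3 at 0.00915, 0.00647 and 0.0456. In the average 28 were lower (all genes 33.4%), which added Xrcc3, Fancg and Mus81 at 0.0128, 0.0197 and 0.0306, and 0 genes were higher in these 3 comparisons.

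**Figure D1:**
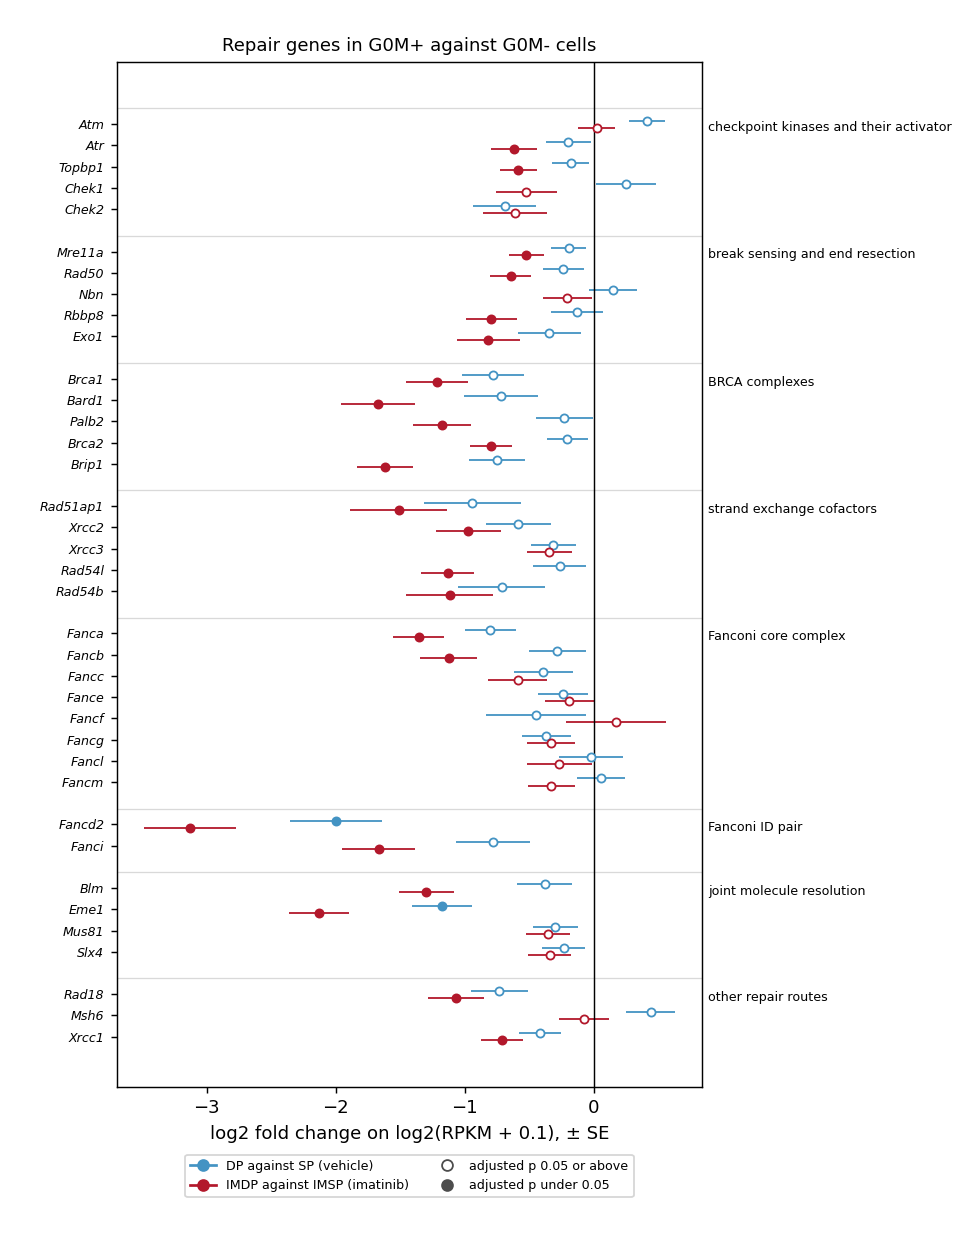
Log2 fold change (± SE) of the 37 tested repair genes on the log2(RPKM + 0.1) scale, by role, for DP against SP cells (blue) and IMDP against IMSP cells (red), with filled points for an adjusted p under 0.05. Fancd2 and Eme1 are the filled blue points, 23 points are filled in red, and Atm, Chek1, Nbn, Msh6, Fancm, Fancf and Fancl lie nearest to or to the right of 0 in at least 1 treatment.

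The plot of fold changes orders the genes by role, and genes of every role were called. The average over treatments called 3 of 5 checkpoint genes, 4 of 5 genes of break sensing and end resection, 5 of 5 of the BRCA complexes, 4 of 5 tested strand exchange cofactors, 3 of 8 Fanconi core genes, 2 of 2 of the FANCD2-FANCI pair, 2 of 4 genes of joint molecule resolution and 2 of 3 others, each in the direction of lower levels in G0M+ cells.

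Among the checkpoint genes, Atm (chromosome 9, 53439149 to 53536740, - strand, positions here and for other genes from GENCODE M21 on GRCm38), the kinase that answers double-strand breaks, was the one gene with a positive fold change in both treatments. It measured 7.42, 8.56 and 7.36 RPKM in DP and 5.87, 5.67 and 5.89 in SP cells, against 8.39, 6.07 and 7.48 in IMDP and 7.61, 7.21 and 6.63 in IMSP cells. The DP libraries were all above the SP libraries, while IMDP and IMSP overlapped. The log2 fold change was 0.41 ± 0.14 (SE) in DP against SP (adjusted p = 0.218) and 0.02 ± 0.14 in IMDP against IMSP (adjusted p = 0.923), so Atm passed the threshold in neither. Chek1 (chromosome 9, 36708482 to 36727065, - strand), the kinase downstream of ATR, measured 5.51, 5.97 and 4.47 RPKM in DP and 4.75, 3.93 and 4.65 in SP cells, against 4.76, 2.18 and 3.39 in IMDP and 5.11, 4.90 and 4.30 in IMSP cells. Its groups overlapped in both treatments, and its average log2 fold change was -0.14 ± 0.17 (adjusted p = 0.557), turning to 0.02 when libraries were scaled to the same median. That average joins 0.25 ± 0.23 in DP against SP (adjusted p = 0.655) and -0.52 ± 0.23 in IMDP against IMSP (0.119). Chek1 was called lower in IMDP than in IMSP cells without IMDP replicate 1 (-0.78, adjusted p = 0.0174). The same held without the DP and IMDP libraries highest in mast cell markers (0.0222). The other 3 were lower in G0M+ cells in the average. Topbp1, the activator of ATR, had the highest levels of the 38 genes together with Msh6, and both together made up 20.5% of their summed level. It averaged 15.8 ± 2.91 RPKM (SD, n = 3) in IMDP and 23.5 ± 1.73 in IMSP cells (log2 fold change -0.59 ± 0.14, adjusted p = 0.0138). Atr averaged 3.87 ± 0.583 RPKM in IMDP and 6.01 ± 1.03 in IMSP cells (adjusted p = 0.026). Chek2, the kinase downstream of ATM, was called in the average (-0.65 ± 0.17, adjusted p = 0.0188), and in each treatment only with the library number as a block or, under imatinib, without IMSP replicate 3 (adjusted p = 0.0462).

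Among the genes that sense and resect broken ends, 2 of the 3 subunits of the MRE11-RAD50-NBS1 complex were lower in IMDP than in IMSP cells. Mre11a, its nuclease, averaged 3.77 ± 0.546 RPKM in IMDP and 5.43 ± 0.303 in IMSP cells (adjusted p = 0.0168). Rad50, its ATPase, averaged 4.95 ± 0.761 and 7.76 ± 1.04 RPKM (adjusted p = 0.0146). Nbn (chromosome 4, 15957925 to 15992589, + strand), which encodes NBS1 and recruits ATM, was the gene with the population effect nearest to 0. It measured 4.16, 3.45 and 3.32 RPKM in DP and 3.18, 3.55 and 3.05 in SP cells, against 3.05, 2.34 and 2.40 in IMDP and 2.91, 3.80 and 2.40 in IMSP cells. The G0M+ and G0M- libraries overlapped in both treatments, and the average log2 fold change was -0.03 ± 0.13 (adjusted p = 0.895), or 0.13 with libraries scaled to the same median. Rbbp8, which encodes CtIP and starts resection, was lower in IMDP than in IMSP cells (-0.80 ± 0.20, adjusted p = 0.0154), and so was the exonuclease gene Exo1 (-0.82 ± 0.24, adjusted p = 0.0307). Rbbp8 lost this call in a fit of IMDP and IMSP libraries alone (adjusted p = 0.055) and without IMDP replicate 2, IMDP replicate 3 or IMSP replicate 1 (0.0529 to 0.0744). With libraries scaled to the same median, the IMDP against IMSP calls of Mre11a, Rad50, Exo1, Atr and Topbp1 were lost, with adjusted p between 0.0505 and 0.147.

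All 5 genes of the BRCA complexes were lower in IMDP than in IMSP cells, with log2 fold changes from -1.67 to -0.80. Brip1 (chromosome 11, 86058138 to 86201193, - strand), the helicase bound by BRCA1, measured 1.5, 1.13 and 1.43 RPKM in DP and 2.80, 2.16 and 2.11 in SP cells, against 1.36, 1.00 and 0.896 in IMDP and 3.10, 4.21 and 3.25 in IMSP cells. Every G0M+ library lay below every G0M- library, with a log2 fold change of -0.75 ± 0.21 (adjusted p = 0.118) under vehicle and -1.62 ± 0.21 (adjusted p = 0.000563) under imatinib. Bard1 (chromosome 1, 71027498 to 71103146, - strand), the obligate partner of BRCA1 in its ubiquitin ligase, measured 2.80, 2.64 and 3.15 RPKM in DP and 5.91, 3.96 and 4.64 in SP cells, against 3.75, 1.67 and 1.42 in IMDP and 6.74, 6.87 and 6.93 in IMSP cells. Its groups did not overlap in either treatment, and IMDP replicate 1 was more than 2 times as high as the other IMDP libraries (log2 fold change -1.67 ± 0.28, adjusted p = 0.00271 against IMSP). Palb2 (chromosome 7, 122107262 to 122132985, - strand), which links BRCA1 to BRCA2, measured 2.48, 1.68 and 1.93 RPKM in DP and 2.64, 2.77 and 1.83 in SP cells, against 1.32, 1.70 and 1.59 in IMDP and 3.80, 4.24 and 2.85 in IMSP cells. DP and SP libraries overlapped, and the difference was called under imatinib alone (-1.18 ± 0.22, adjusted p = 0.00464). Brca1 itself averaged 3.97 ± 0.658 RPKM in DP and 6.85 ± 0.572 in SP cells, against 3.00 ± 1.21 in IMDP and 6.82 ± 1.12 in IMSP cells, with adjusted p of 0.156 and 0.00577. Brca2, a mediator of strand exchange, was 1.74-fold lower in IMDP than in IMSP cells (adjusted p = 0.00629).

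Because most of these genes were lower together, the promoters of the set were searched for letters known from cell cycle genes, the E2F motif (TTTCCCGC, TTTCGCGC, TTTGCCGC or TTTGGCGC) and the CHR motif (TTTGAA or TTCGAA), on both strands, in RefSeq windows of 250 bases before to 50 bases after the gene start (GRCm38.p6). Of the 38 genes, 31 had a window. An E2F motif was present in 7 of the 31 (22.6%), beside 2.3% of all 32851 windows and 4.1% of those of tested genes. The 7 holders were Bard1, Brca2, Chek2, Topbp1, Fancg, Msh6 and Rad51c, so the motif was present in 4 of 19 genes lower in G0M+ cells (21.1%) and in 3 of the 12 others (25.0%). A CHR motif was present in 3 windows (9.7%), those of Atr, Bard1 and Eme1, beside 19.2% of all windows and 14.0% of those of tested genes. All were among the 19 genes lower in G0M+ cells (15.8%), with 0 among the 12 others. The upstream stretches of the 4 genes with a motif and the smallest p, where it lay outside annotated exons, and of Fancm, a gene with an effect near 0 and no match, are printed 5′ to 3′ on the strand of the gene, with the motif in capitals. They come from chr1:71103147-71103222 (- strand) for Bard1, chr5:150522393-150522512 (+) for Brca2, chr9:103305095-103305214 (+) for Topbp1, chr5:110839771-110839890 (+) for Chek2 and chr12:65075483-65075602 (+) for Fancm.
Bard1: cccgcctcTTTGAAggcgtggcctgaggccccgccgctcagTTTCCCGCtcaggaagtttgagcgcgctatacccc
Brca2: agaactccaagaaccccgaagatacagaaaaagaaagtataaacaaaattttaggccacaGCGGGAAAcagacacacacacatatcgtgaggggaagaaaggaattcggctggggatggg
Topbp1: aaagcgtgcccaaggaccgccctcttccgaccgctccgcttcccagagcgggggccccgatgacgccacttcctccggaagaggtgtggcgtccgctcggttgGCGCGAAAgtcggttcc
Chek2: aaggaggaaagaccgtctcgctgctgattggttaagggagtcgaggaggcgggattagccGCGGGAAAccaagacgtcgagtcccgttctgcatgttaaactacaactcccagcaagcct
Fancm: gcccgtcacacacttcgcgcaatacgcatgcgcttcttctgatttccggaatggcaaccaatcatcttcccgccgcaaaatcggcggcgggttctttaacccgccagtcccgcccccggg
In Bard1 the CHR letters stood 242 bases and the E2F letters 209 bases before the RefSeq start, counted to their first base. In Brca2, Topbp1 and Chek2 the E2F letters stood on the other strand. A match is a description of the sequence and no measure of binding.

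Of the strand exchange cofactors, Rad54l (chromosome 4, 116094264 to 116123690, - strand), a motor that drives strand exchange, measured 5.72, 3.50 and 4.38 RPKM in DP and 5.63, 5.06 and 5.39 in SP cells, against 4.49, 2.83 and 2.92 in IMDP and 7.59, 8.02 and 6.75 in IMSP cells. DP replicate 1 lay above every SP library, whereas all IMDP libraries lay below all IMSP libraries (-1.13 ± 0.21, adjusted p = 0.00379). Rad51ap1 was 2.85-fold lower in IMDP than in IMSP cells (adjusted p = 0.0148), with a wide spread in IMDP cells (2.40 ± 1.61 RPKM, SD, n = 3). Xrcc2 (-0.97 ± 0.25, adjusted p = 0.0175) and the RAD54 relative Rad54b (-1.12 ± 0.34, adjusted p = 0.0317) had lower values as well. Rad54b was tested only because the SP and IMSP libraries reached 1 RPKM, and it lost the call without that filter (adjusted p = 0.0541), with libraries scaled to the same median (0.0837) and in 6 other settings. It is among the 25 and 23 genes counted above. Xrcc3 averaged 3.86 ± 0.174 RPKM in DP and 4.82 ± 0.310 in SP cells, against 4.11 ± 0.851 in IMDP and 5.23 ± 0.934 in IMSP cells, with an average log2 fold change of -0.33 ± 0.12 (adjusted p = 0.0653).

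The Fanconi core complex, the ligase that marks FANCD2 and FANCI with ubiquitin, had 3 of 8 genes called in the average. Fanca (chromosome 8, 123268300 to 123318576, - strand) measured 5.18, 5.00 and 4.42 RPKM in DP and 8.80, 8.58 and 8.25 in SP cells, against 4.78, 2.62 and 3.07 in IMDP and 9.68, 9.32 and 7.58 in IMSP cells. The highest G0M+ library lay well below the lowest G0M- library in both treatments. The log2 fold change was -0.80 ± 0.20 (adjusted p = 0.0618) under vehicle, just short of the threshold, and -1.36 ± 0.20 (adjusted p = 0.000958) under imatinib. Under vehicle Fanca passed the threshold with the replicate number as a block (adjusted p = 0.0421) and with libraries scaled to the same median (0.0171). Fancb (chromosome X, 164980592 to 164997272, + strand), a subunit of the catalytic module, measured 1.25, 0.859 and 1.17 RPKM in DP and 1.55, 1.22 and 1.26 in SP cells, against 1.15, 0.963 and 0.880 in IMDP and 2.36, 2.52 and 1.99 in IMSP cells. DP and SP libraries overlapped, while every IMSP library was above every other library measured (-1.12 ± 0.22, adjusted p = 0.00555). Fancm (chromosome 12, 65075603 to 65132058, + strand), the translocase that anchors the complex to DNA, measured 1.99, 1.90 and 2.26 RPKM in DP and 2.04, 2.12 and 1.76 in SP cells, against 1.79, 1.46 and 1.71 in IMDP and 2.25, 2.43 and 1.68 in IMSP cells. Its groups overlapped in both treatments, and the average log2 fold change was -0.14 ± 0.13 (adjusted p = 0.449). Of the rest, Fancc was called in the average (-0.49 ± 0.16, adjusted p = 0.0435). It lost this call with libraries scaled to the same median (adjusted p = 0.21), without the filter on low values (0.0726), without the DP and IMDP libraries highest in mast cell markers (0.0911) and in 9 of the fits that left out 1 library. Fance, Fancf, Fancg and the ligase subunit gene Fancl had average log2 fold changes from -0.35 to -0.14 and adjusted p from 0.0695 to 0.727, of which Fancg passed the threshold with the replicate number as a block (adjusted p = 0.0464). With libraries scaled to the same median, the average effect of Fancf, Fancl, Fancm, Nbn and Chek1 changed sign, and none of these 5 was called.

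The largest difference of the 38 genes was in Fancd2 (chromosome 6, 113531682 to 113597017, + strand), whose protein the core complex activates on crosslinked DNA. Fancd2 measured 2.19, 0.924 and 1.03 RPKM in DP and 5.89, 5.22 and 5.18 in SP cells, against 1.33, 0.425 and 0.640 in IMDP and 7.02, 8.35 and 6.10 in IMSP cells. The lowest SP library was more than 2 times as high as the highest DP library, and the gap under imatinib was wider. Fancd2 was 3.99-fold lower in DP than in SP cells (log2 fold change -2.0 ± 0.36, adjusted p = 0.0101) and 8.76-fold lower in IMDP than in IMSP cells (-3.13 ± 0.36, adjusted p = 0.000237). The call under vehicle was lost, at adjusted p of 0.0526 to 0.0594, when DP replicate 2, DP replicate 3 or SP replicate 1 was left out. Fanci (chromosome 7, 79391929 to 79450264, + strand), its partner on DNA, measured 2.52, 1.56 and 1.83 RPKM in DP and 4.00, 3.32 and 2.91 in SP cells, against 2.54, 1.02 and 1.37 in IMDP and 5.50, 5.48 and 4.39 in IMSP cells. The groups did not overlap in either treatment, but the fold change was smaller, at -0.78 ± 0.29 (adjusted p = 0.258) and -1.67 ± 0.29 (adjusted p = 0.00278).

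**Figure D2:**
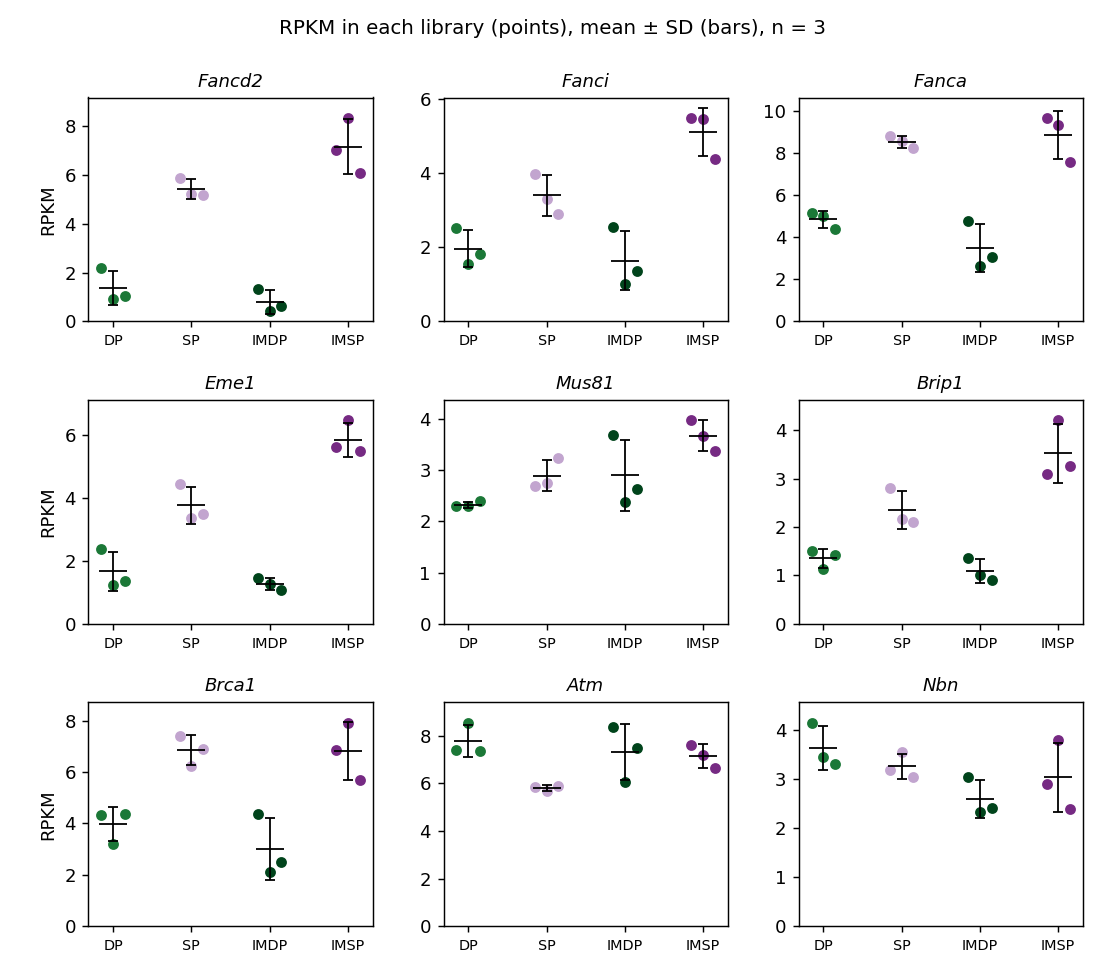
RPKM of 9 repair genes in each of the 12 libraries (points), with the mean and SD of each group of 3 (bars). Fancd2, Fanci, Fanca, Eme1, Brip1 and Brca1 lie lower in all DP than in all SP and in all IMDP than in all IMSP libraries, while Mus81, Atm and Nbn lie close together or overlap in at least 1 treatment.

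Eme1 (chromosome 11, 94644996 to 94653964, - strand), the partner that makes the MUS81 nuclease active on branched DNA, was the other gene lower under both treatments. It measured 2.39, 1.24 and 1.37 RPKM in DP and 4.44, 3.38 and 3.49 in SP cells, against 1.47, 1.27 and 1.07 in IMDP and 5.62, 6.48 and 5.50 in IMSP cells. No G0M+ library reached the lowest G0M- library, and the log2 fold change was -1.18 ± 0.23 (adjusted p = 0.0175) in DP against SP and -2.13 ± 0.23 (adjusted p = 0.000194) in IMDP against IMSP. The call under vehicle was lost without DP replicate 2, DP replicate 3, SP replicate 1 or SP replicate 3 (adjusted p 0.0503 to 0.0942) and in a fit of DP and SP libraries alone (0.0884). Exons of Eme1 overlap those of Lrrc59, a gene on the opposite strand that reached 55.2 RPKM, by up to 221 bases, and Lrrc59 was itself lower in IMDP than in IMSP cells (log2 fold change -1.13 ± 0.23, adjusted p = 0.00582). The sources used here do not say whether reads were counted by strand, so the share of Lrrc59 in the Eme1 values was not tested. Blm (chromosome 7, 80454733 to 80535119, - strand), the helicase that dissolves crossed DNA strands, measured 4.09, 2.96 and 2.56 RPKM in DP and 4.55, 3.78 and 4.07 in SP cells, against 2.25, 1.48 and 2.51 in IMDP and 5.61, 4.72 and 5.12 in IMSP cells. DP replicate 1 fell within the range of the SP libraries, while IMDP and IMSP did not overlap (-1.30 ± 0.21, adjusted p = 0.00221). Mus81 averaged 2.32 ± 0.0580 RPKM in DP and 2.89 ± 0.304 in SP cells, against 2.89 ± 0.687 in IMDP and 3.67 ± 0.296 in IMSP cells (average log2 fold change -0.33 ± 0.12, adjusted p = 0.0656), and the scaffold gene Slx4 had -0.29 ± 0.12 (adjusted p = 0.0887). Of 10 tested genes whose exons overlap those of a repair gene on the opposite strand, 2 were called between IMDP and IMSP cells, Lrrc59 and Klc1 (-0.39 ± 0.12, adjusted p = 0.0336), which overlaps Xrcc3 by 12 bases, and 8 were not, among them the neighbours of Rad54l, Fanca and Fanci. Rad54b shares up to 2068 exonic bases with Fsbp on its own strand. The RPKM of Rad54b imply a length of 7051 bases, where its longest annotated transcript has 2870, and whether its values hold reads of Fsbp was not tested.

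The remaining 3 genes serve other routes. Rad18, a ubiquitin ligase of damage tolerance, was 2.09-fold lower in IMDP than in IMSP cells (adjusted p = 0.00646), and Xrcc1, a scaffold of single-strand break repair, was 1.64-fold lower (adjusted p = 0.0113, or 0.0508 with libraries scaled to the same median). Msh6, a mismatch sensor, averaged 17.7 ± 1.29 RPKM in DP and 13.1 ± 2.42 in SP cells, against 14.2 ± 3.12 in IMDP and 14.9 ± 2.60 in IMSP cells. All DP libraries lay above all SP libraries (0.44 ± 0.19, adjusted p = 0.361), and IMDP and IMSP overlapped (-0.07 ± 0.19, adjusted p = 0.798).

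To see whether partner genes differed unequally, the log2 ratio of their RPKM was compared between G0M+ and G0M- cells within treatments for 8 pairs by an exact permutation test (two-sided, 400 arrangements, smallest possible p 0.005), adjusted over the 8. The tested values used RPKM + 0.1 for each gene, so they depend on the scaling of a library only through the added 0.1. The ratios printed per library are of RPKM without it. The ratio of Eme1 to Mus81 was 1.05, 0.542 and 0.573 in DP, 1.66, 1.23 and 1.08 in SP libraries, then 0.400, 0.537 and 0.407 in IMDP and 1.42, 1.77 and 1.63 in IMSP libraries. All G0M+ libraries were below all G0M- libraries, with a log2 difference of -1.33 (exact permutation p = 0.005, adjusted p = 0.01). The ratio of Fancd2 to Fanci was 0.871, 0.592 and 0.561 in DP, 1.47, 1.57 and 1.78 in SP libraries, then 0.522, 0.416 and 0.466 in IMDP and 1.28, 1.52 and 1.39 in IMSP libraries. It too was lower in every G0M+ library, with a log2 difference of -1.34 (exact permutation p = 0.005, adjusted p = 0.01). The ratios of Fanca to its core partner Fancg (-0.73) and of Chek2 to Atm (-0.87) were lower as well, both with an exact permutation p of 0.005 and an adjusted p of 0.01. The ratio of Rad50 to Nbn differed by -0.41 (exact permutation p = 0.01, adjusted p = 0.016). Brca1 to Bard1 (0.20, adjusted exact permutation p = 0.269), Brca2 to Palb2 (0.20, 0.275) and Chek1 to Atr (0.27, 0.133) did not pass the threshold.

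**Figure D3:**
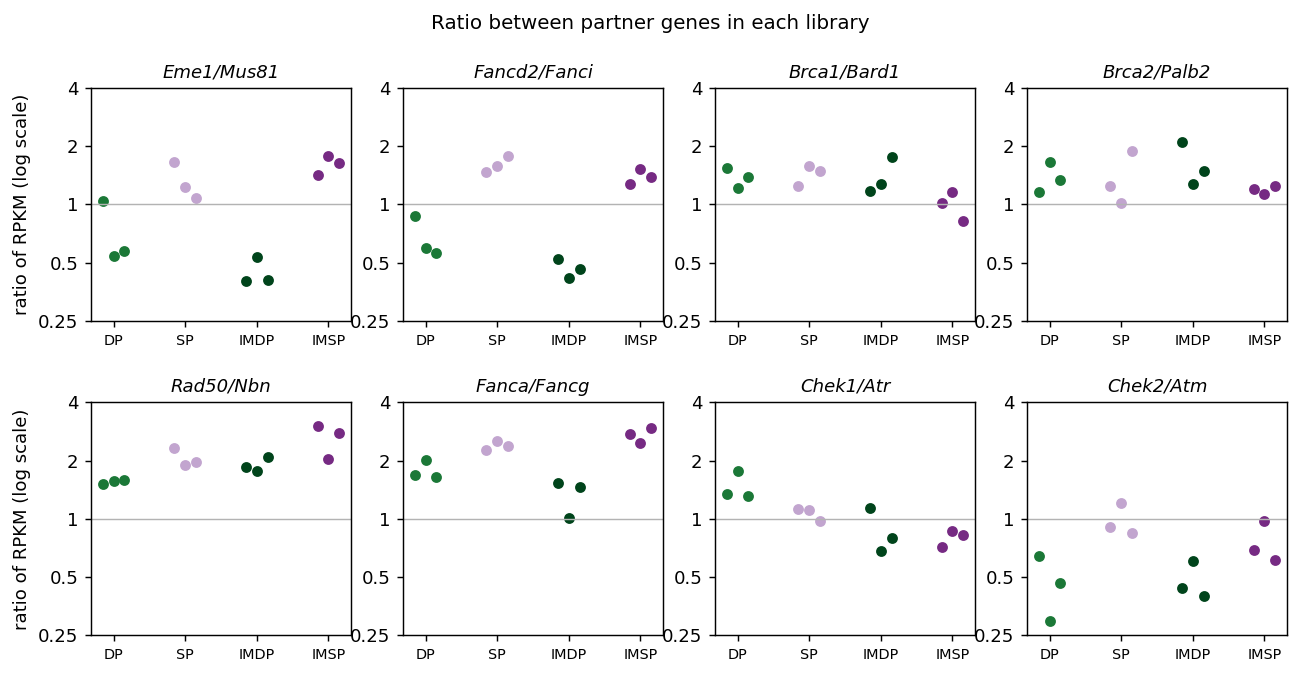
Ratio of the RPKM of 8 pairs of partner genes in each library, on a log axis with a line at a ratio of 1. Eme1/Mus81 and Fancd2/Fanci lie at 1.05 or below in DP and IMDP libraries and at 1.08 or above in SP and IMSP libraries. For Brca1/Bard1 and Brca2/Palb2, DP and SP libraries overlap, while all IMDP libraries lie above all IMSP libraries.

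Imatinib was compared with vehicle within each population. Of the 37 tested genes, 0 were called lower (all genes 0.338%) and 0 higher (0.0298%) by limma in IMDP against DP cells, and 6 had an unadjusted p under 0.05 (all genes 20.5%). In 4 of the 37 all IMDP libraries lay below all DP libraries (all genes 19%), and in 0 above (4.58%). The 4 were Rbbp8, Nbn, Fancm and Blm, of which Rbbp8 had the smallest adjusted p, with 4.57, 4.64 and 4.46 RPKM in DP and 3.32, 2.43 and 2.47 in IMDP cells (-0.73 ± 0.20, adjusted p = 0.099). Without IMDP replicate 1, the number of calls was 3, Bard1 (log2 fold change -0.85, adjusted p = 0.0464), Fanca (-0.76, 0.042) and Chek1 (-0.93, 0.0499). The share of all genes called in that fit is not given here. In IMSP against SP cells 0 genes were called by limma (all genes 0%), 9 had an unadjusted p under 0.05 (all genes 8.39%), and in 15 all IMSP libraries lay above all SP libraries (all genes 11.1%), with 0 below (2.72%). Fancb was foremost, at 1.55, 1.22 and 1.26 RPKM in SP and 2.36, 2.52 and 1.99 in IMSP cells (0.73 ± 0.22, adjusted p = 0.437). The 2 comparisons leaned opposite ways, with a median log2 fold change over the repair genes of -0.26 in G0M+ cells (all genes -0.17) and 0.26 in G0M- cells (all genes 0.08). The test of that difference, the interaction of population and treatment, called 0 of the 37 genes by limma (all genes 0%), with 12 at an unadjusted p under 0.05 (all genes 9.3%) and a smallest adjusted p of 0.534. On the reads recovered from the RPKM, limma-voom called 0 genes in each of these 3 comparisons. A larger population difference under imatinib than under vehicle is therefore not shown for any of these genes.

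**Figure D4:**
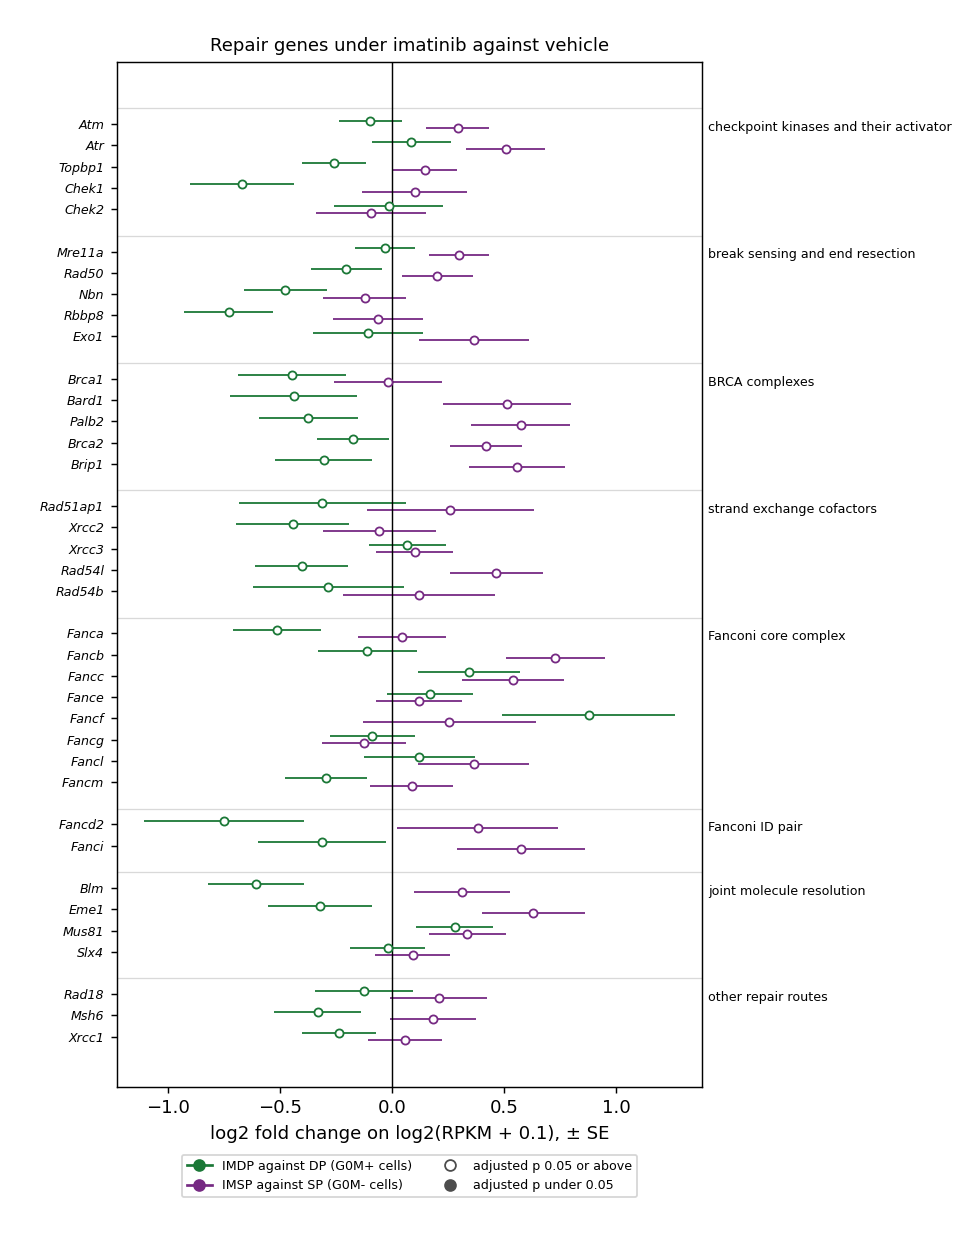
Log2 fold change (± SE) of the 37 tested repair genes under imatinib against vehicle on the log2(RPKM + 0.1) scale, in G0M+ cells (IMDP against DP, green) and in G0M- cells (IMSP against SP, purple). All points are open, since 0 genes had an adjusted p under 0.05, and 30 green points lie left of 0 while 31 purple points lie right of it. Of all tested genes, 69.3% had a negative fold change in IMDP against DP and 35.5% in IMSP against SP.

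The other genes of these pathways were taken from lists compiled by name, and the average over treatments was used. In it, 21% of all tested genes were called lower in G0M+ cells and 5.32% higher. Of 30 other tested homologous recombination genes, 12 were lower and 2 higher in G0M+ cells. Among the lowest p values were those of Polq (-1.81 ± 0.15, adjusted p = 2.57e-05) and Gen1, a nuclease of crossed strands (-2.33 ± 0.25, 6.97e-05). Polq is the polymerase of theta-mediated end joining, and it was counted on this list and not among the end joining genes below. The 2 higher genes were Eme2, the alternative partner of MUS81 (0.76 ± 0.20, adjusted p = 0.0188), and Rad51d (0.52 ± 0.17, 0.043). Eme2 thus differed in the direction opposite to Eme1. Of 14 other Fanconi genes 4 were lower and 0 higher, with Faap24 (-1.25 ± 0.24, adjusted p = 0.00405), the nuclease subunit gene Ercc1 (-0.65 ± 0.15, 0.0113) and the deubiquitinase gene Usp1 (-0.57 ± 0.17, 0.029) first. Of 25 other checkpoint and damage mediator genes 10 were lower and 0 higher, led by the histone gene H2afx (-2.22 ± 0.20, adjusted p = 2.93e-05), Parpbp (-2.84 ± 0.40, 0.000591) and the ubiquitin ligase gene Rfwd3 (-0.88 ± 0.13, 0.000878).

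Other repair routes are set beside the 21% of all genes called lower. Of 6 other mismatch repair genes 0 were called by limma, with 1 at an unadjusted p under 0.05. Of 7 tested end joining genes 2 were lower, Nhej1 (-0.75 ± 0.23, adjusted p = 0.0362) and Poll (-0.42 ± 0.13, 0.0366), and 1 was higher, Prkdc, the DNA-dependent kinase (0.29 ± 0.09, 0.0293). Of 18 tested genes of base excision and single-strand break repair 8 were lower, with the glycosylase gene Neil3 (-3.00 ± 0.30, adjusted p = 4.4e-05) and the flap nuclease gene Fen1 (-0.92 ± 0.15, 0.00145) among them, and 1 was higher, Ung, the uracil glycosylase (1.53 ± 0.17, 7.51e-05). Of 13 nucleotide excision repair genes 3 were lower, with Ercc3 (-0.52 ± 0.09, adjusted p = 0.00257) and Ddb1 (-0.40 ± 0.09, 0.0103) among them, and 1 was higher, Uvssa (0.57 ± 0.18, 0.0406). The median log2 fold change was -0.32 for the other homologous recombination genes, -0.35 for the other Fanconi genes, -0.29 for the other checkpoint genes and -0.32 for base excision. It was -0.125 for nucleotide excision repair, 0.01 for mismatch repair and -0.05 for end joining, beside -0.135 for all tested genes. These values are a description, and differences between lists were not tested.

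**Figure D5:**
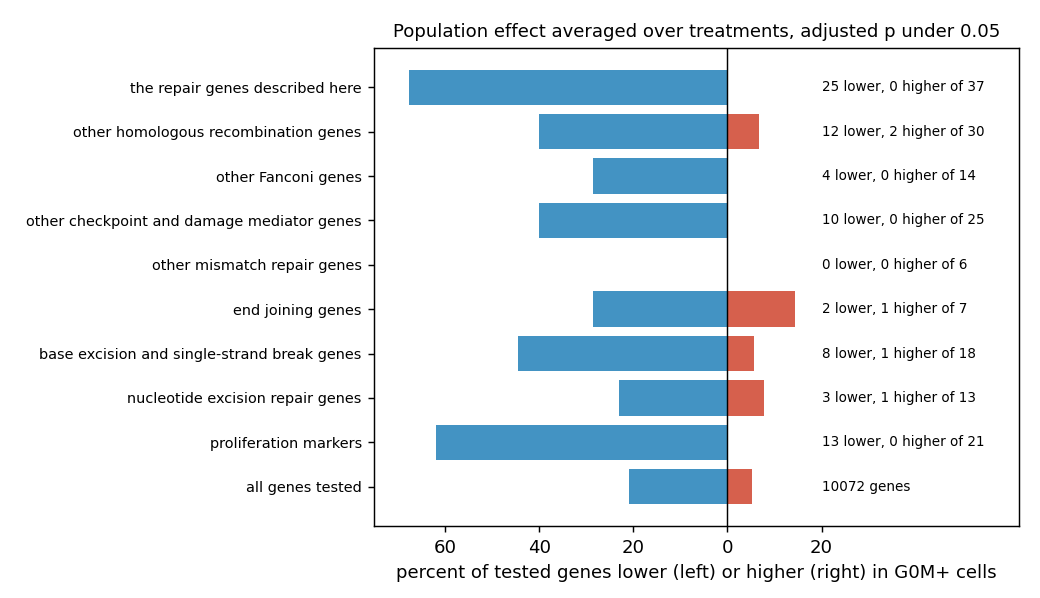
Percent of the tested genes of each list that were lower (blue, to the left of 0) or higher (red, to the right) in G0M+ than in G0M- cells, averaged over treatments, at an adjusted p under 0.05, with all tested genes in the last row. The repair genes described here have 25 of 37 lower, the proliferation markers 13 of 21, the other mismatch repair genes 0 of 6, and all genes 21%.

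Other measures moved with the same groups. Of 21 proliferation markers, 13 were lower in G0M+ cells in the average and 0 higher, and 9 were lower in DP than in SP and 16 in IMDP than in IMSP cells. Under vehicle 8 of the 21 had a positive fold change. In 4 of these, Mcm2, Mcm3, Mcm4 and Mcm6, all DP libraries lay above all SP libraries (all genes 9.68%), and in 11 markers all lay below (12.7%). The summed level of the 21 markers was 413 to 510 RPKM in DP and 632 to 674 in SP libraries, and 240 to 423 in IMDP and 657 to 772 in IMSP libraries. The summed level of the 38 repair genes was 143 to 161 RPKM in DP and 175 to 192 in SP libraries, and 107 to 159 in IMDP and 192 to 231 in IMSP libraries, so neither sum overlapped between populations within a treatment. Both sums were highest in replicate 1 within DP and within IMDP. These 2 libraries also had the highest sum of 9 mast cell and basophil markers, 329 and 194 RPKM, beside 14.9 to 80.1 in the other G0M+ and 7.92 to 24.4 in the G0M- libraries, and Tpsb2 was at 0 in all the others. Without both of them, 6 repair genes were lower in DP than in SP cells instead of 2. The share of all genes called in that fit is not given here, so the rise cannot be read as particular to the repair genes. Of 8 macrophage markers, C1qa, C1qb and C1qc were at 0 in all G0M- libraries, and the summed level was 5.99 to 21.2 RPKM in G0M+ and 3.80 to 38.2 in G0M- libraries. The share of reads on listed features was 25.5% to 30.7% in IMDP and 32.2% to 36.6% in IMSP libraries. The part of proliferation, of mast cell and macrophage RNA and of this share in the repair gene differences was not tested.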

How the data were processed

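RNA of 100 sorted cells per library was sequenced in 12 libraries, 3 per group. Per the methods, the authors mapped reads to GRCm38/mm10 with CLC Genomics Workbench, while their reporting summary names cutadapt, HISAT2 and featureCounts, and they deposited RPKM per feature. Whether a further normalization is part of these values is not given in the sources used here. Groups came from the sample labels.

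Numbered copies of a gene were summed (Rad51c and Fance have 2 features each). Reads behind the RPKM were recovered as whole reads (tolerance 0.02) for 17734 of 17735 features above 0. Precision from reads covers counting error only. The 10072 genes that reached 1 RPKM in 3 or more libraries were tested on log2(RPKM + 0.1) with limma 3.58.1 in R 4.3.3, with 4 group means, a variance trend and Benjamini-Hochberg adjustment over all tested genes. Populations were compared within each treatment (DP with SP, IMDP with IMSP) and on average over both, treatments within each population (IMDP with DP, IMSP with SP), and the interaction was taken from the same fit. The fit was tested on simulated data. Positions came from GENCODE M21 (GRCm38) and promoters from RefSeq (GRCm38.p6). Tables and figures used Python 3.11.15 with matplotlib 3.10.9, pandas 2.3.3 and numpy 2.4.6.

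Members and lists were chosen with earlier results of these data known. Values in every library are printed for genes called in DP against SP, IMDP against DP or IMSP against SP, for the 10 with the smallest p in IMDP against IMSP, for genes with a positive fold change in both treatments and for the 3 nearest to 0. Of other lists the genes with the smallest p and those called against the rest are named. Some genes that this rule names are not reported here. Equal replicate numbers paired IMDP with IMSP libraries (correlation of deviations 0.429 to 0.655), which are also neighbours by library number, but not DP with SP (-0.298 to -0.098). Neighbouring library numbers paired DP with SP libraries of other replicate numbers (0.495 to 0.519). Alternatives changed the pseudocount, the filter, the libraries in the fit, the scaling, the values tested (limma-voom on recovered reads), or the handling of copies, took out each library in turn, or used a replicate block or a library number block. Leaving out the 2 libraries highest in mast cell markers was chosen after seeing the data. Libraries of other samples of the study were not used here.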

Additional observations from a re-analysis of the deposited data

Results flagged for a closer look

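Blm was the 1 gene of the set whose libraries moved one way under imatinib in one population and the other way in the other population. Every IMDP library (2.25, 1.48 and 2.51 RPKM) lay below every DP library (4.09, 2.96 and 2.56 RPKM), with a log2 fold change of -0.60. Every IMSP library (5.61, 4.72 and 5.12 RPKM) lay above every SP library (4.55, 3.78 and 4.07 RPKM), with a log2 fold change of 0.31. The difference between these 2 effects was tested as the interaction of population and treatment (-0.92 ± 0.30) and did not pass the threshold in limma (adjusted p = 0.534).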

How the results depend on the processing

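No gene of the set reversed its direction under any setting at which it was called. In DP against SP, 2 genes were called, 6 with the library number block, 6 without the 2 libraries highest in mast cell markers (chosen once the values were known), 3 with the replicate block, and 0 to 6 with 1 library left out. In IMDP against IMSP, 23 were called, 23 with the replicate block, 26 with the library number block, 16 with libraries scaled to the same median or with only the groups compared in the fit, and 13 (without IMSP replicate 1; 15 without IMDP replicate 2) to 25 with 1 library left out. In IMDP against DP, 0 were called, 0 with the replicate block and 0 to 3 with 1 library left out, and in IMSP against SP and in the interaction 0 under each setting run. For the average over treatments, 25 were called, 26 with the replicate block, 28 with the library number block, and 21 to 27 with 1 library left out. The cause was not tested. Except for the library number block, the share of all genes called under these alternatives is not given here. The 5 partner ratios past the threshold stayed past it at a pseudocount of 1 and with each library left out (adjusted exact permutation p up to 0.024), and Chek1 to Atr passed it without IMDP replicate 2 (log2 difference 0.35, adjusted p = 0.0333). With 3 libraries of 100 cells per group and as few as 20 reads of a gene in a library, genes without a call are not shown to be equal between groups.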
